A study of Homo sapiens with 6 samples.

Results

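The haematopoietic GATA factors GATA1, GATA2 and GATA3 and their cofactor FOG1, the product of ZFPM1, were followed in RPMI-8402 cells (RPMI8402 in the sample titles, RMPI8402 in other labels), a line established from a human T-cell acute lymphoblastic leukaemia. The members were found by matching the RefSeq accession of each array probe to these 4 gene symbols, out of 19722 genes named on the array. Each member had 1 probe with 1 spot. Cells received lentivirus for a control shRNA, for an shRNA against GATA3 (shGATA3) or for an shRNA against TCF7, the gene of TCF1 (shTCF1). The study's methods give EGFP as the reporter in the vectors of the control shRNA and of the shRNA against GATA3. They describe sorting of transduced cells by reporter at 48 h for cord blood cells and thymocytes. Whether the RPMI-8402 cells were sorted is not stated there. All 3 groups were taken at 48 h, and each had 2 replicates on 1 array each. Per the study's methods the shRNA against GATA3 was 1 construct, so an effect of GATA3 loss and one of that hairpin sequence cannot be told apart. The construct against TCF7 is not given in the sources used here.

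GATA factors are zinc finger proteins that bind DNA at GATA letters and steer blood cell fate. GATA2 is known for its role in stem and progenitor cells and in mast cells, GATA1 for erythroid cells, megakaryocytes and mast cells, and GATA3 for T cells and for Th2 cells, a class of helper T cells. FOG1 does not bind DNA by itself but docks on the amino-terminal zinc finger of a GATA factor and brings the NuRD corepressor complex and CtBP proteins with it.

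The intensities were normalized by variance stabilizing normalization (VSN) to a log2 scale. On it a difference of 1 is close to a doubling for bright probes, while near background the scale is compressed and a difference of 1 stands for a larger ratio. On this scale levels may be compared between arrays for a given probe, not between probes. The share of probes well above background ranged from 51.0% to 56.2% per array. The array readings held T-lineage transcripts, since 8 of 9 T-lineage markers were well above background on all 6 arrays and the other, CD1A, on some. KLRD1 and KLRF1 of NK cells, HBB of erythroid cells, PPBP of megakaryocytes, CD33 of myeloid cells and TPSAB1 and MS4A2 of mast cells were so on 0 arrays. Before normalization the control arrays were brighter, with a 75th percentile of the intensity of 278 ± 12.5 (SD, n = 2) against 176 ± 0.802 for shGATA3 and 172 ± 9.52 for shTCF1. The control arrays lay in row 2 of the slide and all shGATA3 and shTCF1 arrays in row 1. Slide row and the presence of a targeting hairpin therefore cannot be told apart. Within row 1 the shTCF1 arrays lay in columns 1 and 2 and the shGATA3 arrays in columns 3 and 4. Between these 2 groups, slide column and hairpin cannot be told apart either.

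GATA3 is the member that the first hairpin targets, and no fall of it was called on the arrays that carry its label. The normalized log2 intensity of its probe A_33_P3360341 was 9.54 and 9.56 on the control arrays, 9.46 and 9.55 where the label is shGATA3, and 9.76 and 9.90 where it is shTCF1. The control and shGATA3 arrays overlapped, while both shTCF1 arrays lay above the other 4. The group means were 9.55 ± 0.011 for control, 9.503 ± 0.064 for shGATA3 and 9.83 ± 0.10 for shTCF1 (SD, n = 2 each). The difference of shGATA3 from control was -0.05 (SE 0.10), and limma did not call it (adjusted p 0.795). Its unadjusted 95% interval ran from -0.31 to 0.21, and its lower end is a fall of 19.1% in the normalized signal of this probe. That figure rests on the normalization of arrays that differed in brightness and slide row, and is no bound on GATA3 mRNA itself. The study reports that its shRNA against GATA3 lowered GATA3 in human thymocytes, which are other cells than those on these arrays. The probe had a single spot per array, and its place in the transcript relative to the hairpin's target was not used here. The groups are therefore named by their labels below, and no direction given for shGATA3 stands for a measured loss of GATA3.

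Before normalization the same probe read lower on the shGATA3 arrays than on the control arrays. GATA3 gave intensities of 949 and 1051 on the control arrays, 601 and 661 on the shGATA3 arrays and 768 and 780 on the shTCF1 arrays, in scanner units. The control mean was 1.58 times the shGATA3 mean, and the 75th percentile of all probes differed between these groups by 1.59 times. Divided by that percentile, GATA3 stood at 3.50 and 3.63 on the control arrays, at 3.42 and 3.74 on the shGATA3 arrays and at 4.29 and 4.70 on the shTCF1 arrays. After this division the shGATA3 values lay on both sides of the control values.

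**Figure D1:**
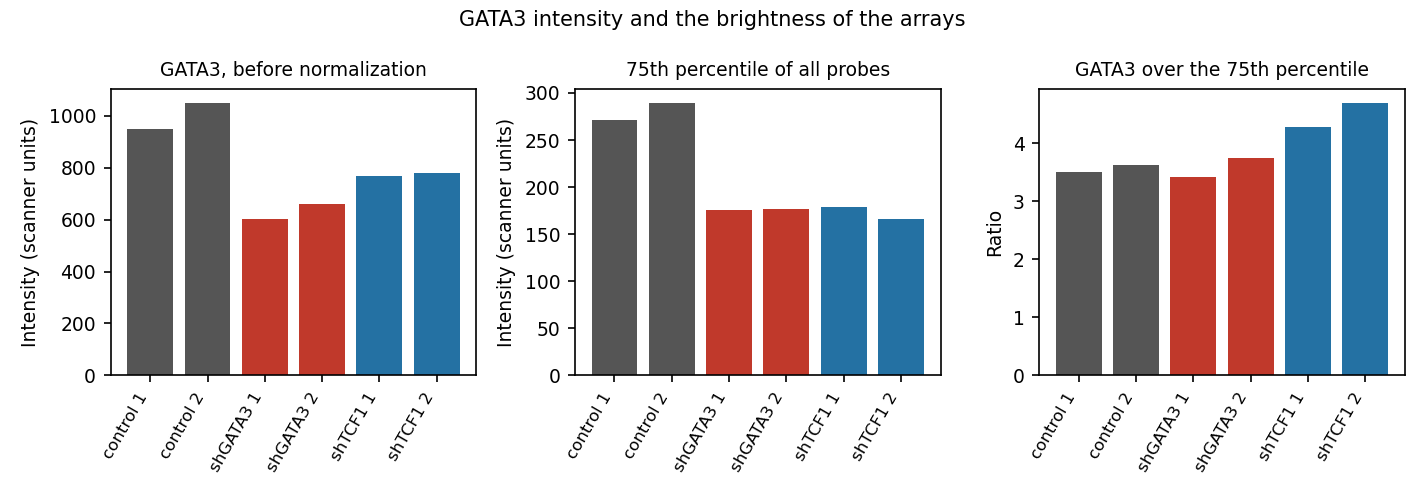
GATA3 intensity of each array before normalization (left, scanner units), the 75th percentile of the intensity of all probes of that array (middle, scanner units) and their ratio (right); each bar is 1 array, coloured by group. The control bars are highest in the left and middle panels, and in the right panel the control and shGATA3 bars lie between 3.42 and 3.74.

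Across the groups GATA3 was highest on the shTCF1 arrays. It stood 0.28 (SE 0.10) above control there, with a 95% interval of 0.02 to 0.53, and limma did not call the difference after adjustment over 31131 probes (adjusted p 0.122). Set against each other, shGATA3 and shTCF1 left a log2 difference in GATA3 of -0.33 (SE 0.10, 95% interval -0.58 to -0.07), again without a call (adjusted p 0.136). The groups did not overlap in either comparison. This alone sets GATA3 little apart, since the groups did not overlap at 66.9% of all tested probes between shTCF1 and control and at 52.0% between shGATA3 and shTCF1. With an intensity trend and robust hyperparameters in the same test, the difference of -0.33 between the hairpins was called (adjusted p 0.0458), and this was the only one of 20 alternatives to do so.

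Because TCF1 is the other factor targeted, the letters CTTTGA, which TCF and LEF proteins favour, were looked for in the 250 bases before each start site that RefSeq lists for the members, together with the GATA letters (AGATAA, its variant AGATAG, the string TGATAA and its variant TGATAG), all on both strands. The end of CTTTGA can be the start of a GATA string, but no stretch of a member held such a string. RefSeq lists 6 starts for GATA3, 2 for GATA2 and 1 each for GATA1 and ZFPM1 in its promoter table for GRCh38.p14. The GATA letters stood in 0 of these 10 stretches, against 22.3% of all 35116 stretches of that length, and the TCF letters in 2 of 10, against 11.2%. Both stretches with the TCF letters are shown here on the strand of the gene, which is the plus strand for both, with the match in capitals. That before 1 of the GATA3 starts is chr10:8053391-8053640, with the match beginning 161 bases before the start, and that of GATA1 is chrX:48786340-48786589, with the match beginning 37 bases before the start.
GATA3: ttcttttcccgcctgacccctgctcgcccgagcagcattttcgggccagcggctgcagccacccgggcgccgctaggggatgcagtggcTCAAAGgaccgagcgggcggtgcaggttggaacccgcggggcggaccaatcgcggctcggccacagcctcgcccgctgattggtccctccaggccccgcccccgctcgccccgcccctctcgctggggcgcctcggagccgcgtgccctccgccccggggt
GATA1: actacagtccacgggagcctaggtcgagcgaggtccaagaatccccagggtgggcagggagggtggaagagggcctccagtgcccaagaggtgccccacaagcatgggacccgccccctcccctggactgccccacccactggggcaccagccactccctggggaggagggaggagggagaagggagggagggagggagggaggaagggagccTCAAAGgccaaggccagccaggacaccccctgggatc
The stretches were rich in G and C, 74.8% for this GATA3 start and 68.4% for GATA1, against a median of 58% over all stretches. A match of letters describes the sequence, and no binding was measured on these arrays.

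GATA2, the progenitor member, was measured on all 6 arrays and was not called in any comparison. Its probe A_33_P3550894 read 7.67 and 7.65 on the control arrays, 7.59 and 7.93 on the shGATA3 arrays and 7.55 and 7.45 on the shTCF1 arrays. The shGATA3 arrays lay on both sides of the control arrays and differed from each other more than any other pair of a group did for this probe. The group means were 7.66 ± 0.014 for control, 7.76 ± 0.24 for shGATA3 and 7.50 ± 0.070 for shTCF1 (SD, n = 2 each). GATA2 differed from control by 0.10 (SE 0.14, adjusted p 0.675) under shGATA3 and by -0.16 (SE 0.14, adjusted p 0.442) under shTCF1. The difference between shGATA3 and shTCF1 was 0.26 (SE 0.14, 95% interval -0.08 to 0.60, adjusted p 0.315). In scanner units GATA2 gave 254 and 275 on the control arrays, 162 and 213 on the shGATA3 arrays and 163 and 140 on the shTCF1 arrays. The control mean was 1.41 times the shGATA3 mean and 1.75 times the shTCF1 mean, where the 75th percentile of all probes differed by 1.59 and 1.62 times. Without replicate 2 of shGATA3 the difference from control turned to -0.07, so its sign rested on that array. In the order of the group means, shGATA3 above control above shTCF1, the first neighbours overlapped, while the control and shTCF1 arrays lay apart without a call.

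GATA1, the erythroid and megakaryocytic member, was not well above background on 5 of the 6 arrays. Its probe A_24_P374244 gave scanner intensities of 5.04 and 4.48 on the control arrays, 2.87 and 2.90 on the shGATA3 arrays and 22.4 and 3.36 on the shTCF1 arrays. Only replicate 1 of shTCF1 passed the scanner software's background test, at a normalized log2 intensity of 4.86. The lowest probe that passed on that array stood at 4.42, so the reading was close to the limit of what the array measures. Replicate 2 of shTCF1 stood at 2.97, within the range of 2.90 to 3.09 of the control and shGATA3 arrays. The probe was not tested, and no fold is given for it, because no group had it well above background on both arrays.

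**Figure D2:**
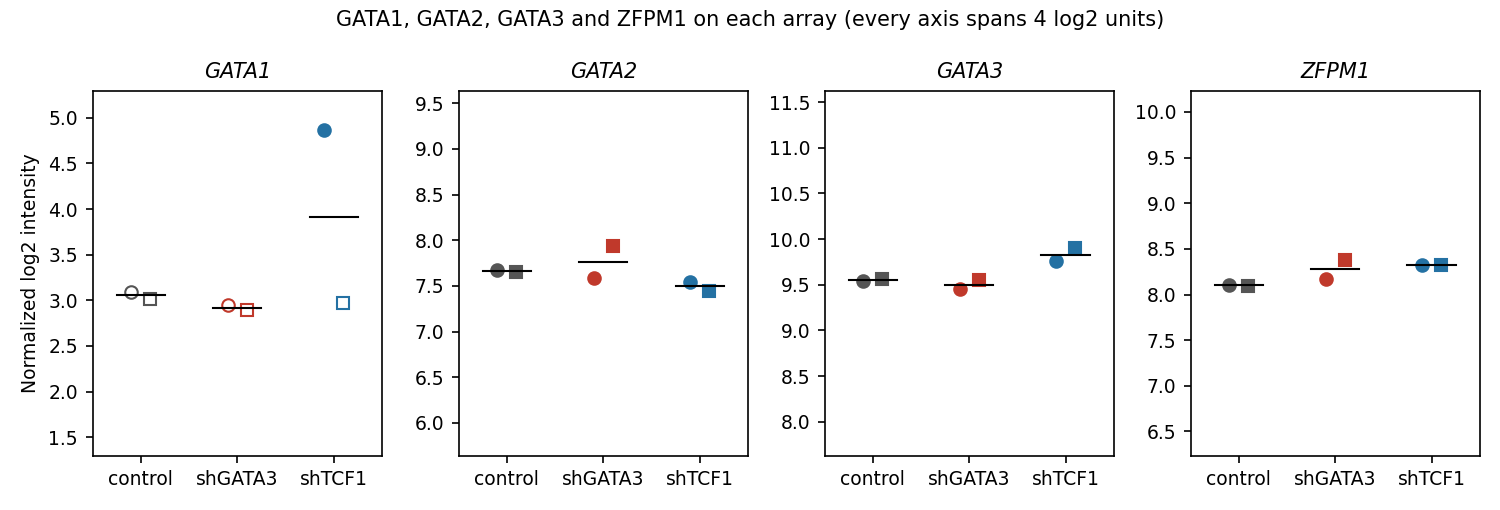
Normalized log2 intensity of GATA1, GATA2, GATA3 and ZFPM1 on each array, by group; circles are replicate 1, squares replicate 2, filled symbols are well above background, open symbols are not, and black lines are group means. GATA1 is open on 5 arrays, GATA3 is highest on the shTCF1 arrays, and the shGATA3 mean differs from control by -0.05 for GATA3, 0.10 for GATA2 and 0.18 for ZFPM1.

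ZFPM1, which encodes the cofactor FOG1, was measured on all 6 arrays as well. Its probe A_33_P3311979 read 8.10 and 8.10 on the control arrays, 8.17 and 8.38 on the shGATA3 arrays and 8.33 and 8.33 on the shTCF1 arrays. All 4 arrays with a targeting hairpin were above both control arrays. The group means were 8.10 ± 0.0020 for control, 8.28 ± 0.15 for shGATA3 and 8.33 ± 0.00087 for shTCF1 (SD, n = 2 each). The difference from control was 0.18 (SE 0.11, 95% interval -0.09 to 0.45, adjusted p 0.354) under shGATA3 and 0.23 (SE 0.11, 95% interval -0.04 to 0.50, adjusted p 0.203) under shTCF1, and neither was called. The scanner intensities were 345 and 377 on the control arrays, 245 and 293 on the shGATA3 arrays and 282 and 260 on the shTCF1 arrays. Here the control mean was 1.34 times the shGATA3 mean and 1.33 times the shTCF1 mean, in both cases less than the 75th percentile of all probes differed. Between shGATA3 and shTCF1 ZFPM1 differed by -0.05 (SE 0.11, adjusted p 0.833) and the arrays overlapped. The 4 arrays with a targeting hairpin were also the 4 in row 1 of the slide, and the part of slide row in this order was not tested.

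Taken over the members, limma called 0 of the 3 tested probes in each comparison. Over all probes tested, 6.84% were called between shGATA3 and control, 16.9% between shTCF1 and control and 6.18% between shGATA3 and shTCF1. By direction, 2.88% of all probes were called higher and 3.96% lower between shGATA3 and control, 7.21% and 9.73% between shTCF1 and control, and 3.58% and 2.60% between shGATA3 and shTCF1. At an unadjusted limma p under 0.05 the members gave 0 of 3 between shGATA3 and control and 1 of 3 between shTCF1 and control. They gave 1 of 3 between shGATA3 and shTCF1, and it was GATA3 in both cases. Of all 31131 tested probes, 8254, 10907 and 7298 had such a p in the same order, so these counts set the members little apart. The arrays of the compared groups did not overlap for 1 of 3 members between shGATA3 and control, against 60.2% of all tested probes, for 3 of 3 between shTCF1 and control and for 2 of 3 between shGATA3 and shTCF1. ZFPM1 lay higher in the first of these, where 29.1% of all probes lay apart higher and 31.1% lower. GATA3 and ZFPM1 lay higher and GATA2 lower in the second, where 31.8% did so higher and 35.1% lower. GATA2 lay higher and GATA3 lower in the third, where 25.9% did so higher and 26.1% lower. Both hairpin groups share the control arrays. An exact permutation test of 2 arrays against 2 goes no lower than a two-sided p of 0.3333, so each p printed depends on limma's sharing of the spread among probes. A p that misses the threshold leaves differences as wide as the intervals possible. In cell populations such as these, fewer cells that express a gene and less RNA per cell cannot be told apart.

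TCF7, the target of the second hairpin, shows what a called knockdown looked like on the same arrays. Its probes fell on the shTCF1 arrays by 1.31 (A_23_P7582, adjusted p 0.00394) and by 1.48 (A_33_P3250671, adjusted p 0.00463), which left 40.5% and 35.8% of the control level. None of the member intervals reached a fall of that size.

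**Figure D3:**
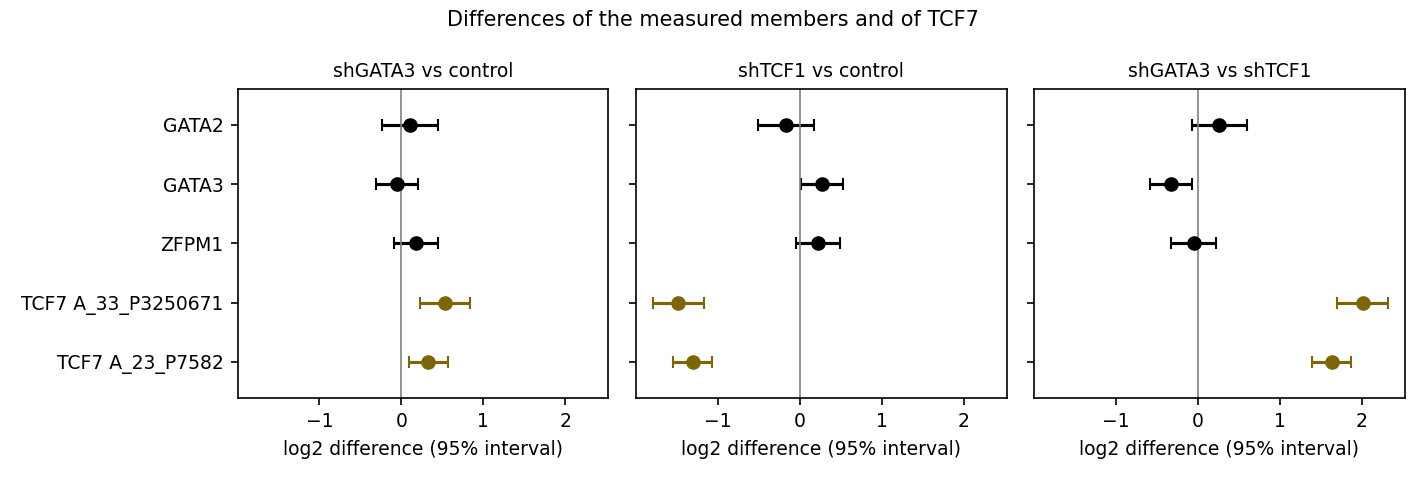
Difference in normalized log2 intensity of GATA2, GATA3, ZFPM1 and both TCF7 probes in the 3 comparisons; points are limma estimates, bars their unadjusted 95% intervals, and the grey line marks no difference. Member intervals stay between -0.58 and 0.60, while both TCF7 probes lie between -1.79 and -1.07 in shTCF1 against control.

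Genes whose pattern over the 6 arrays was most like each member's were listed by Pearson correlation among 13482 named genes that were well above background on every array. For GATA3 they were KRTAP19-2 (0.999), GRN (0.997) and PIGT (0.997). For GATA2 they were SNHG6 (0.982), REXO5 (0.974) and NME6 (0.973), and for ZFPM1 they were CHPF (0.992), ATOX1 (0.989) and RBM42 (0.988). The 6 points of each correlation fall into 3 groups, and the members ranged over 0.48 (GATA2), 0.44 (GATA3) and 0.28 (ZFPM1) log2 units, so these values describe the order of the arrays only.

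Of the 5 other GATA and FOG genes 3 were well above background on all 6 arrays, namely GATA4, GATA6 and TRPS1. GATA5, ZFPM2 and the antisense RNA GATA3-AS1 were well above background on 0 arrays, and GATA2-AS1 and GATA6-AS1 matched no probe. GATA6, known for endoderm and heart, read 6.51 and 6.66 on the control arrays, 5.82 and 6.04 on the shGATA3 arrays and 5.77 and 6.11 on the shTCF1 arrays. All 4 arrays with a targeting hairpin, which are those of slide row 1, were below both control arrays, and the part of slide row was not tested. GATA6 fell by 0.64 under shTCF1 (SE 0.16, adjusted p 0.0420) and had a difference of -0.65 under shGATA3 that was not called (SE 0.16, adjusted p 0.0631). The call under shTCF1 ended when any 1 array was left out, with adjusted p up to 0.166 and differences of -0.81 to -0.47.

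GATA4, a heart and gonad factor, had 3 probes that disagreed. A_23_P384761 was well above background on 0 arrays. A_33_P3360363 was called between shGATA3 and control (0.66, SE 0.11, adjusted p 0.0290) and between shGATA3 and shTCF1 (0.67, SE 0.11, adjusted p 0.0274), but A_33_P3293456 was called in neither, at 0.36 (adjusted p 0.214) and -0.03 (adjusted p 0.937). Both calls were lost under normexp with quantile normalization, no filter on dim probes, an intensity trend, trend and robust, and the replicate block. The call against control was also lost without any 1 of its 4 arrays (adjusted p up to 0.145), and that between the hairpins without any 1 array but replicate 1 of shTCF1 (adjusted p up to 0.107). Both tested probes read between 4.63 and 5.57, where the lowest probe that passed the background test stood at 4.10 to 4.56 depending on the array. TRPS1, a GATA-type repressor, was called between shTCF1 and control on A_23_P134755 (-0.49, SE 0.11, adjusted p 0.0392) and not on A_33_P3361746 (-0.38, SE 0.13, adjusted p 0.0895). Between shGATA3 and shTCF1 the second of these was called (0.61, SE 0.13, adjusted p 0.04995) and the first was not (0.52, adjusted p 0.0586). The call on the first probe was lost without either shTCF1 or either control array (adjusted p up to 0.177), and that on the second when any 1 array was left out (adjusted p up to 0.162).

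Partners and opponents of GATA factors range from the bHLH and LIM proteins that share their complexes to the ETS factor PU.1 that opposes them, and LYL1 differed most among them. For the lists that follow, a gene was read from its brightest tested probe. Over all genes tested, 6.93% were called between shGATA3 and control, 16.2% between shTCF1 and control and 6.58% between shGATA3 and shTCF1, with median differences of -0.03, -0.05 and 0.0034. Of 22 partner genes 20 were tested. Between shGATA3 and control 1 rose and 3 fell (median -0.08), between shTCF1 and control 2 rose and 1 fell (median 0.11), and 1 was higher and 4 lower under shGATA3 than under shTCF1 (median -0.14).

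LYL1, a bHLH factor close to TAL1, read 9.86 and 9.86 on the control arrays, 8.04 and 8.13 on the shGATA3 arrays and 10.5 and 10.6 on the shTCF1 arrays. The 3 groups lay apart from one another. LYL1 fell by 1.77 under shGATA3 (adjusted p 0.00194), rose by 0.73 under shTCF1 (adjusted p 0.0114) and differed by -2.51 between the hairpins (adjusted p 0.000540). The rise was not called without control replicate 1 or without control replicate 2, with an adjusted p of up to 0.0708.

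NFE2, a bZIP factor of erythroid cells and megakaryocytes, read 12.7 and 12.8 on the control arrays, 12.2 and 12.4 on the shGATA3 arrays and 13.3 and 13.4 on the shTCF1 arrays. It rose by 0.57 under shTCF1 (adjusted p 0.0262) and was lower by a difference of -1.05 under shGATA3 than under shTCF1 (adjusted p 0.00677). GFI1B, a repressor that GATA1 is known to work with, read 7.34 and 7.23, then 5.77 and 6.52, then 7.57 and 7.57 in the same order of groups. The shGATA3 arrays were below all others but differed from each other. GFI1B fell by 1.14 under shGATA3 (adjusted p 0.0481) and differed by -1.43 between the hairpins (adjusted p 0.0272).

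LMO1, the LIM protein gene activated by translocation in this line, rose by 0.80 under shGATA3 (adjusted p 0.0135) and was 0.67 higher there than under shTCF1 (adjusted p 0.0197). SPI1, whose product PU.1 opposes GATA factors, fell by 0.65 under shGATA3 (adjusted p 0.0425) and by 0.67 under shTCF1 (adjusted p 0.0246). ERG, an ETS factor named after its values were seen, was lower under shGATA3 than under shTCF1 by a difference of -0.60 (adjusted p 0.0314). The calls of LMO1, SPI1 and ERG, and that of NFE2 under shTCF1, did not survive the removal of any 1 of the 4 arrays concerned (highest adjusted p 0.211). GFI1B under shGATA3 was lost without any 1 array but replicate 2 of shGATA3, and between the hairpins without either shTCF1 array. LYL1 and NFE2 between the hairpins and LYL1 under shGATA3 were called whichever array was left out.

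**Figure D4:**
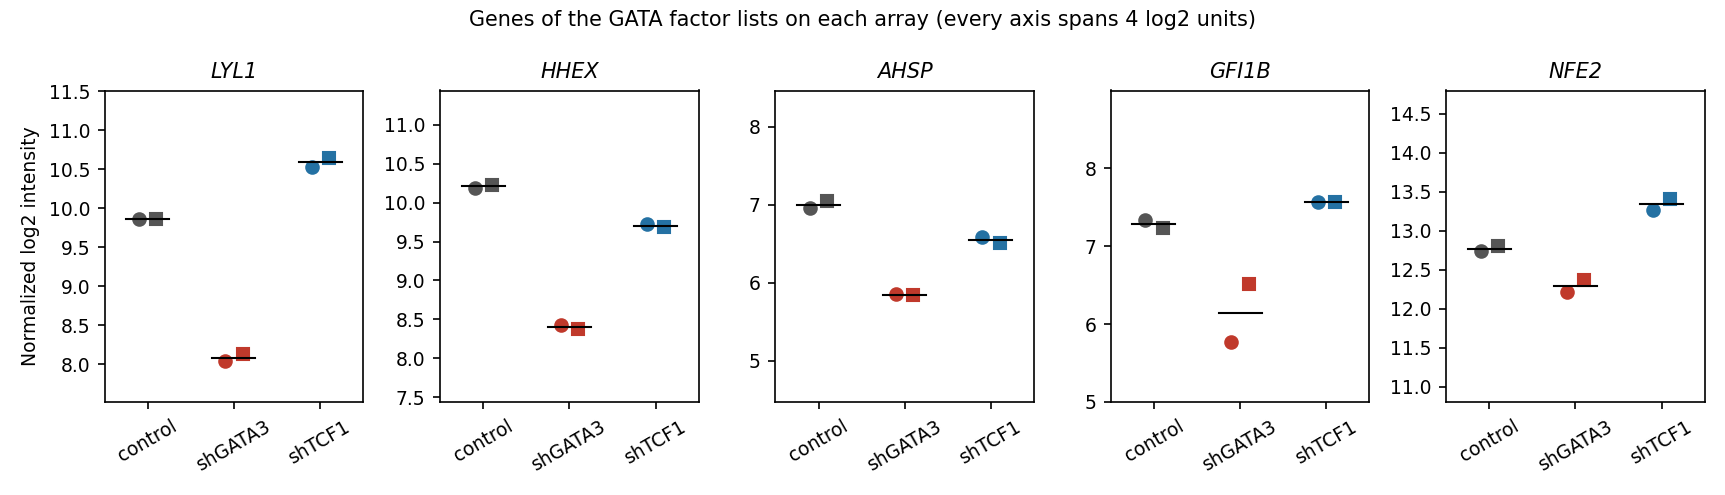
Normalized log2 intensity of LYL1, HHEX, AHSP, GFI1B and NFE2 on each array (every axis spans 4 log2 units), by group; circles are replicate 1, squares replicate 2 and black lines group means. LYL1 lies near 8.04 to 8.13 on the shGATA3 arrays, at 9.86 on the control arrays and at 10.5 to 10.6 on the shTCF1 arrays.

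The corepressors that FOG1 brings to GATA factors, the NuRD complex and CtBP proteins, held 1 call. Of 15 genes 13 were tested, and the median differences were -0.03, -0.11 and 0.07 in the order shGATA3 against control, shTCF1 against control and shGATA3 against shTCF1. MTA2, a NuRD subunit, read 10.5 and 10.4 on the control arrays, 11.3 and 10.9 on the shGATA3 arrays and 11.3 and 11.4 on the shTCF1 arrays. It rose by 0.91 under shTCF1 (adjusted p 0.0140), and this was not called without either shTCF1 or either control array (adjusted p up to 0.0708).

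Erythroid and megakaryocyte genes, known targets of GATA1 with FOG1, held 16 of 26 genes with a tested probe, and AHSP was the only one called in each comparison. AHSP, the chaperone of alpha globin, read 6.96 and 7.05 on the control arrays, 5.85 and 5.84 on the shGATA3 arrays and 6.59 and 6.51 on the shTCF1 arrays. It fell by 1.16 under shGATA3 (adjusted p 0.00480) and by 0.45 under shTCF1 (adjusted p 0.0321), and differed by -0.70 between the hairpins (adjusted p 0.0159). The second and the third of these did not survive the removal of any 1 of the 4 arrays concerned (highest adjusted p 0.163). The list medians were 0.06, 0.09 and -0.09 in the order of comparisons above. Of 5 erythroid markers 4 were well above background on all 6 arrays and HBB on 0, and the summed intensity of the erythroid markers over the 75th percentile ranged from 3.63 to 4.62 over the arrays. All arrays were of 1 leukaemia line, and the source of these erythroid readings was not tested.

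Mast cell and progenitor genes, which include known targets of GATA2, held 11 tested genes of 17, with medians of -0.02, 0.12 and -0.22. HHEX, a homeobox factor of blood progenitors, read 10.2 and 10.2 on the control arrays, 8.43 and 8.38 on the shGATA3 arrays and 9.72 and 9.69 on the shTCF1 arrays. It fell by 1.80 under shGATA3 (adjusted p 0.00169) and by 0.50 under shTCF1 (adjusted p 0.0231), and differed by -1.30 between the hairpins (adjusted p 0.00223). FCER1G, a signalling chain of Fc receptors, rose by 0.59 under shTCF1 (adjusted p 0.0204) and differed by -0.56 between the hairpins (adjusted p 0.0382). HDC, the enzyme that makes histamine, rose by 0.50 under shTCF1 (adjusted p 0.0342). The calls of FCER1G and HDC, and that of HHEX under shTCF1, did not survive the removal of any 1 of the 4 arrays concerned (highest adjusted p 0.158).

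T-lineage genes, among which GATA3 has known targets, held 17 tested genes of 23, with medians of 0.19, 0.05 and 0.20. Under shGATA3 2 rose and 2 fell against control. SATB1, a chromatin organizer of T cells, rose by 1.31 (adjusted p 0.0175), and DNTT, which adds bases at V(D)J joints, rose by 0.73 (adjusted p 0.0262). IKZF2, a relative of Ikaros, fell by 0.75 (adjusted p 0.0247) and the costimulatory receptor CD28 fell by 0.47 (adjusted p 0.0472). Between the hairpins 2 were higher and 2 lower under shGATA3. Under shTCF1 3 rose and 3 fell, with TCF7 itself among those that fell. SATB1 rose there by 0.80 (adjusted p 0.0355) and CD3G, a chain of the T-cell receptor complex, by 0.63 (adjusted p 0.0370). RAG1, the V(D)J recombinase, was not well above background on any shTCF1 or shGATA3 array. With dimmer readings raised to the lowest level that passed on their array, the control mean was at least 1.55-fold above shTCF1 and 1.73-fold above shGATA3. The order of these bounds is that of the raised means (4.49 for shTCF1, 4.34 for shGATA3). The measured means were 3.70 under shTCF1 and 4.15 under shGATA3. Limma called the measured difference of -1.43 under shTCF1 (adjusted p 0.0320) and did not call that of -0.97 under shGATA3, so no fall is claimed there. Both differences include readings that were not well above background. Without replicate 1 of shGATA3 or of control SATB1 was not called under shGATA3, and without replicate 2 of shGATA3 or either control array IKZF2 was not. The calls given here of DNTT, CD28, CD3G and RAG1, and of SATB1 under shTCF1, did not survive the removal of any 1 of the 4 arrays concerned (highest adjusted p 0.206). The summed intensity of the T-lineage markers over the 75th percentile was 398 and 416 on the control arrays, 553 and 667 on the shGATA3 arrays and 476 and 390 on the shTCF1 arrays, and its part in these differences was not tested. The markers did not move as 1, since CD2, an adhesion receptor in that sum, fell by 0.47 under shGATA3 (adjusted p 0.0439) and by 2.19 under shTCF1 (adjusted p 0.00200), while CD3D, a chain of the T-cell receptor complex, had differences of 0.81 (adjusted p 0.138) and 0.03 (adjusted p 0.958) that were not called. The call of CD2 under shGATA3 was lost when any 1 array was left out (adjusted p up to 0.217).

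Th2 genes, the best known targets of GATA3 in helper T cells, were mostly dim, with 3 of 10 tested and medians of -0.07, -0.17 and 0.10. IL4R, the interleukin receptor chain, read 8.03 and 8.15 on the control arrays, 7.17 and 7.42 on the shGATA3 arrays and 6.976 and 7.004 on the shTCF1 arrays. It fell by 0.80 under shGATA3 (adjusted p 0.0232) and by 1.104 under shTCF1 (adjusted p 0.00744), and 0 of the 3 genes were called between the hairpins. MAF, a bZIP factor, rose by 0.60 under shTCF1 (adjusted p 0.0249). The call of MAF, and that of IL4R under shGATA3, did not survive the removal of any 1 of the 4 arrays concerned (highest adjusted p 0.114).

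**Figure D5:**
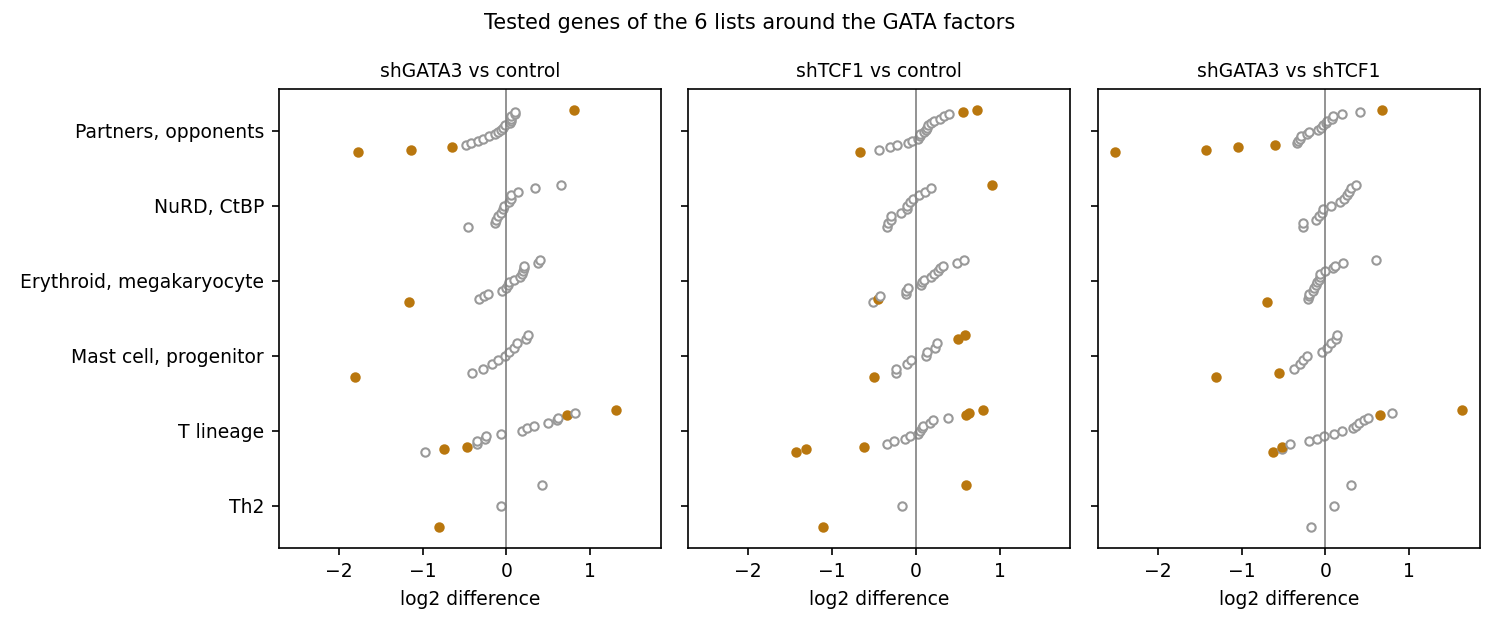
Difference in normalized log2 intensity of each tested gene of the lists in the 3 comparisons; each point is 1 gene at its brightest tested probe, ordered by its difference within a list, filled where limma called it and open where it did not. Called genes reach from -2.51 (LYL1, shGATA3 against shTCF1) to 1.63 (TCF7, same comparison).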

How the data were processed

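RNA of 6 samples was hybridised to 1-colour Agilent arrays, 2 per group. The authors deposited scanner intensity per probe and a matrix of log2 values. They used Feature Extraction per the labels and the VSN package per the methods. Background-corrected intensities were normalized by VSN, written anew in R 4.3.3 (trimming quantile 0.9, 7 rounds, 5 strata), and 31131 probes well above background on both arrays of a group were tested. Tests were limma 3.58.1 (lmFit, eBayes, all 6 arrays, two-sided) with Benjamini-Hochberg adjustment over all probes tested and calls at adjusted p below 0.05. Probes were named by RefSeq accession (GRCh38.p14 table). Python 3.11.15, pandas 2.3.3 and matplotlib 3.10.9 were used elsewhere. Genes named are all members, the other GATA and FOG genes, TCF7, up to 4 called genes of largest difference per list and comparison, and the 3 genes most like each member. The members and lists were chosen with earlier results of these data known. The study describes independent experiments, and nothing in the labels ties replicates to separate cultures, so p-values measure the spread between these samples. The precision is limited by the number of arrays. Scripts were tested on simulated data. Alternatives covered normalization, background, filters, variance models, samples and the replicate block.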

Additional observations from a re-analysis of the deposited data

Results flagged for a closer look

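GATA1 was the only member with a signal outside the tests. On replicate 1 of shTCF1 its probe was well above background at a normalized log2 intensity of 4.86, while it was not on the control arrays (3.09 and 3.02), nor on any other array. The lowest probe that passed on that array stood at 4.42. A single array and a single spot carry the reading, and its cause was not tested.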

How the results depend on the processing

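In 173 of 180 pairs of a member difference and an alternative, direction and side of the threshold held. The exceptions were GATA3 between the hairpins, called with trend and robust (1 member probe, adjusted p 0.0458), and 6 changes of sign, none called. GATA3 between shGATA3 and control read 0.00047 with the 75th percentile of all probes. GATA2 between shGATA3 and control ranged from -0.0686 to 0.272 with an array left out, and ZFPM1 between the hairpins from -0.154 to 0.0565. The deposited matrix gave ZFPM1 differences of -0.17 (shGATA3 against control), -0.30 (shTCF1 against control) and 0.13 (between the hairpins). The causes were not tested.

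Probes called between shGATA3 and control were 2130 as reported, 4247 with normexp and quantile, 560 with no filter, 3913 with an intensity trend, 4382 with trend and robust, and 437 to 1454 with an array left out. Between shTCF1 and control they were 5274, against 2268 with no filter and 865 to 4923 with an array left out. Between the hairpins they were 1925, against 3258 with normexp and quantile, 901 with no filter, 3273 with a trend, 3727 with trend and robust, 1214 with only the arrays compared and 701 to 1214 with an array left out. The deposited matrix gave 0 limma calls in each, with 1814, 2653 and 1642 probes at an unadjusted p under 0.05. With the 75th percentile of all probes, higher calls made up 53.6% in place of 42.1% between shGATA3 and control and 54.8% in place of 42.6% between shTCF1 and control.

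Replicate numbers did not pair the samples (correlations of deviations 0.05, -0.04 and -0.0098). With the replicate number as a block 1328, 3850 and 1285 probes were called in the same order, and 0 members. A block for slide or scan was not run, since all arrays shared both.

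Other changes of sign were of small differences or under the deposited matrix. GATA4 (A_33_P3360363, shTCF1 against control) read 0.0962 (all probes) and 0.0837 (probes well above background) with the 75th percentiles, 0.0654 with quantile, 0.0285 with normexp and 0.0084 in the matrix, and -0.113 to 0.0986 with an array left out. Between the hairpins GATA6 read 0.0319 (normexp), 0.0022 (VSN trimming 0.5), 0.34 (matrix) and -0.181 to 0.160 (array left out), and GATA4 (A_33_P3293456) 0.0064 (normexp), 0.0144 (matrix) and -0.200 to 0.143 (array left out). TRPS1 (A_23_P134755, shGATA3 against control) read -0.00545 (VSN trimming 0.5), -0.34 (matrix) and -0.0671 to 0.125 (array left out). The matrix also gave, against control, 2.69 (shGATA3) and 0.85 (shTCF1) for CD2, 0.55 and 0.57 for SPI1, 1.24 for TCF7 (A_33_P3250671, shTCF1), -0.13 for TRPS1 (A_33_P3361746, shGATA3) and, for GATA4 (A_33_P3360363), -0.0803 under shGATA3 and -0.0887 between the hairpins.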

Other observations

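The deposited matrix of log2 values did not follow the scanner files column by column, and its members are given as values only. Its columns for both shTCF1 samples correlated best with their own arrays (r of 0.9989 and 0.9990 across probes, which are not independent replicates). The column for shGATA3 replicate 1 correlated best with the array of shGATA3 replicate 2 (0.9989) and that for control replicate 1 with the array of control replicate 2 (0.9987). The column for control replicate 2 reached at most 0.7332 with any array, and its median was 6.896 against 7.757 to 7.883 for the others. In that column GATA1 read 5.39, GATA2 8.30, GATA3 9.68 and ZFPM1 8.94, against 3.55, 7.60, 9.60 and 8.16 for control replicate 1. GATA3 read 9.51 and 9.56 in the matrix columns for shGATA3 and 9.66 and 9.68 in those for shTCF1. The methods name VSN for the expression data, while the centring and sample order of the matrix stay unknown.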
